A study of Mus musculus with 21 samples.

Results

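The genes described here are 10 genes of MHC class I antigen presentation, followed in the cortex and hippocampus of mice that make poly-GA in neurons. They were picked by gene symbol from the count table, and each of the 10 symbols matched 1 of its 64361 gene rows. The table comes from prime-seq, a bulk RNA-seq method that counts transcripts by their 3′ ends. In GA-Camk2a mice (labelled GACamk) a Camk2a-Cre driver switches on GFP-tagged poly-GA, a dipeptide repeat that C9orf72 ALS mutations give rise to, in excitatory neurons. The comparison group is labelled ctrl, and the labels say nothing more of its alleles. Both genotypes were kept on a C57BL/6J background and were killed at 30 to 40 weeks of age. Per the study, the line reaches its humane endpoint at about the start of that age range. The cortex gave 5 ctrl and 6 GACamk libraries and the hippocampus 4 ctrl and 6 GACamk libraries, from 11 mice, 10 of which gave both tissues. The study's text gives the control numbers of the tissues the other way round, and the labels were followed. Mice are named below by the number in their labels.

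MHC class I molecules show peptides from inside a cell to CD8 T cells and natural killer cells. Proteasomes, which contain the inducible subunits Psmb8 and Psmb9 in immune-stimulated cells, cut proteins into peptides, and the transporter made of Tap1 and Tap2 carries these into the endoplasmic reticulum. There tapasin (Tapbp) helps load them onto a heavy chain (H2-D1, H2-K1 or H2-T23) bound to B2m, and Nlrc5 is the transactivator that drives transcription of many of these genes. Interferons raise the whole set. In the healthy brain the level of class I is low, and microglia, the resident macrophages, and endothelial cells are its best known sources.

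In GRCm38, 8 of the 10 genes lie on chromosome 17, B2m lies on chromosome 2 and Nlrc5 on chromosome 8. The sequences that follow are the 250 bases before the start site of 5 promoters, written 5′ to 3′ on the strand of the gene and credited to RefSeq on GRCm38.p6. They are shown for the light chain, the 3 heavy chains and 1 subunit of the transporter, because several carry motifs of interferon or NF-kappaB signalling. Promoters were matched for 8 of the 10 genes, and Tap2 and Nlrc5 were not matched. H2-K1 has 2 start sites in RefSeq and the upstream one is shown. Capitals mark matches to the interferon-stimulated response element (ISRE, here GAAA repeated after a gap of 2 bases) and to the NF-kappaB motif, on either strand.
B2m: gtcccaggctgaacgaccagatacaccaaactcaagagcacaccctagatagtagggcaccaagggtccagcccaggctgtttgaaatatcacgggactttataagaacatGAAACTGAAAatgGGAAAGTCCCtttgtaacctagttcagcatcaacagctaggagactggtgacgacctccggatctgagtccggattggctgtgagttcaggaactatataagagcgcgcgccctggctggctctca
H2-T23: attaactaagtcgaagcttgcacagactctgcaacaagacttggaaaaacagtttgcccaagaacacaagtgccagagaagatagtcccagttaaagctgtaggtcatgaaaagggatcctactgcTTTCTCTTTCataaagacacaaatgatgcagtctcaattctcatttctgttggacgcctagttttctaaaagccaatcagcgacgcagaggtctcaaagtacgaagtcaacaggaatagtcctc
H2-D1: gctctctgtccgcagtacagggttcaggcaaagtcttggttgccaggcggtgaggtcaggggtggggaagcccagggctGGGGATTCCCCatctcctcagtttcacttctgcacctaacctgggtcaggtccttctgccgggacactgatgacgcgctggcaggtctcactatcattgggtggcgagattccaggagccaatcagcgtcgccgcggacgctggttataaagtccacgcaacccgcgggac
H2-K1: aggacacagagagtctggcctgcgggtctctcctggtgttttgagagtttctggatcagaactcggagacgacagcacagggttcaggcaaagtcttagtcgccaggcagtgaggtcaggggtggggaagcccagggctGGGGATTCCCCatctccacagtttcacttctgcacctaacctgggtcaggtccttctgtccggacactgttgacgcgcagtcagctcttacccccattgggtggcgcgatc
Tap1: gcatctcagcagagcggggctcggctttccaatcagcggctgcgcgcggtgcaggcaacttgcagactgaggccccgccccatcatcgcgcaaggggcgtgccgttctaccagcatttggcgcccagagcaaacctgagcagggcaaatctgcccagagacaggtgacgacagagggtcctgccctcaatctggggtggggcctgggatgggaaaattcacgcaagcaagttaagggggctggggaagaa

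The B2m window (chr2:122147437-122147686, plus strand) held an ISRE match from -139 to -130 relative to the start site and an NF-kappaB match from -126 to -117. The H2-T23 window (chr17:36032702-36032951, minus strand) held an ISRE match from -124 to -115. Neither H2-D1 (chr17:35262844-35263093, plus strand) nor H2-K1 (chr17:34000348-34000597, minus strand) held the ISRE letters, but each held 2 overlapping NF-kappaB matches and a TGACGC motif of the cAMP-response type, also searched on both strands. The Tap1 window (chr17:34187306-34187555, plus strand) held neither marked motif. Tap1 and Psmb9 are transcribed in opposite directions from starts 226 bases apart, so their windows share 225 bases. The Psmb8 window held a gamma-activated sequence (TTCNNNGAA) and the Tapbp window none of these 4 motifs. Among 32851 mouse promoter windows of the same length, 2.98% held the ISRE letters, 7.25% the NF-kappaB motif, 6.12% TGACGC and 7.02% TTCNNNGAA. A match is a run of letters, not a measured binding site. Looser forms of the ISRE were not searched, so a window without these letters may still hold such an element.

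Total counts ranged from 1048201 to 3609323 in the cortex ctrl libraries, from 1112553 to 2857816 in the cortex GACamk libraries, from 1754999 to 5888102 in the hippocampus ctrl libraries and from 1361268 to 3348378 in the hippocampus GACamk libraries. The GFP row held 0 to 4 counts in every library and does not check the genotype labels. Several hippocampus libraries stood apart. Rorb, a nuclear receptor gene used here as 1 of 4 cortex markers, was at 1455 CPM in ctrl mouse 11, 5303 CPM in GACamk mouse 16 and 4414 CPM in GACamk mouse 30, against 86.6 to 165 CPM in the other hippocampus libraries and 133 to 214 CPM in the cortex other than in GACamk mouse 41. The other 3 markers (Cux2, Tbr1 and Fezf2) summed to 67.4 to 74.7 CPM in these libraries, no higher than in the rest of the hippocampus (72.7 to 90.9 CPM). Of the 4 cortex markers, the excess was therefore in Rorb alone. The hippocampus libraries of GACamk mice 16 and 30 also had the highest choroid plexus sums, 55499 and 49776 CPM. In the cortex, GACamk mouse 41 had Rorb at 612 CPM and the lowest sum of the other 3 markers (78.4 CPM against 81.0 to 174 CPM), and GACamk mouse 34 had choroid plexus markers at 8182 CPM against 1585 to 2721 CPM. Without either of these cortex libraries the same 7 class I genes were called there. Neutrophil genes summed to 546 CPM in the hippocampus library of GACamk mouse 41 and to at most 11.5 CPM in the rest of the hippocampus, and choroid plexus markers ranged from 1807 to 55499 CPM in this tissue. The counts of class I genes called in the hippocampus, and between the tissues, are therefore also given without the 3 libraries with high Rorb and without mouse 41.

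The first question was whether class I genes differ between the genotypes in the cortex. They were higher in GACamk mice throughout the part of the set that could be tested. Of the 10 genes, 7 passed the filter on low counts in the cortex, and 7 of these 7 were higher at an adjusted p under 0.05 (edgeR quasi-likelihood test, batch as covariate). Over all genes tested in the cortex, 6.35% were called higher and 12.5% were called in either direction. Psmb9 passed the filter through its GACamk libraries alone, and without it the count was 6 of 6. The median log2 fold change over all 13058 genes was -0.0049. In bulk tissue, more cells of a type and more RNA per cell cannot be told apart.

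B2m (ENSMUSG00000060802), the light chain shared by all class I molecules, measured 181, 204, 207, 195 and 219 CPM in the cortex of ctrl mice 11, 20, 31, 37 and 38. Its GACamk cortex libraries ranged from 598 to 1111 CPM with a median of 685. Every GACamk library lay above every ctrl library, by a wide margin, and the highest was mouse 16. The fitted increase was 3.81-fold, a log2 fold change of 1.93 with an SE of 0.13 (adjusted p = 1.79e-09). In the hippocampus B2m was at 188, 197, 213 and 205 CPM in ctrl mice 11, 20, 31 and 37, and between 418 and 651 CPM in GACamk mice, with a median of 556. The groups again did not overlap, and the log2 fold change was 1.38 (SE 0.11, adjusted p = 4.95e-06), 2.61-fold. Ctrl libraries differed little among themselves, with an SD of 14 CPM in the cortex (n = 5) and 10.5 CPM in the hippocampus (n = 4).

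H2-D1 (ENSMUSG00000073411) and H2-K1 (ENSMUSG00000061232) encode the classical heavy chains that present peptide to CD8 T cells. H2-D1 was at 57.2, 54.5, 46.9, 44.0 and 50.1 CPM in ctrl cortex and at 129 to 269 CPM, median 189, in GACamk cortex. The groups stood well apart, with a log2 fold change of 1.98 (SE 0.19, adjusted p = 1.64e-07). In the hippocampus H2-D1 was at 45.1, 36.2, 36.5 and 47.2 CPM in ctrl mice and at 125 to 196 CPM, median 148, in GACamk mice. This was a log2 fold change of 1.88 (SE 0.15, adjusted p = 4.51e-06), again without overlap.

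H2-K1 measured 20.0, 10.9, 24.9, 15.7 and 20.2 CPM in ctrl cortex and 55.9 to 97.1 CPM, median 78.9, in GACamk cortex. Its log2 fold change was 2.04 (SE 0.17, adjusted p = 4.06e-08), 4.11-fold. In the hippocampus it measured 27.0, 25.1, 22.8 and 22.6 CPM in ctrl mice and 53.2 to 112 CPM, median 82.7, in GACamk mice, a log2 fold change of 1.73 (SE 0.20, adjusted p = 6.74e-05). The lowest GACamk library was above the highest ctrl library in both tissues. In the last 500 bases of their transcripts, H2-D1 and H2-K1 shared 2 of 451 windows of 50 bases, so most of the sequence that a 3′ method reads tells them apart.

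H2-T23 (ENSMUSG00000067212) encodes Qa-1, a non-classical heavy chain that shows leader peptides to natural killer cell receptors. In ctrl cortex it was at 5.72, 6.36, 9.16, 3.54 and 8.87 CPM and in GACamk cortex at 12.2 to 23.4 CPM, median 15.2. The groups did not overlap, and it rose by a log2 fold change of 1.19 (SE 0.23, adjusted p = 0.00127). In the hippocampus ctrl values were 6.17, 5.26, 5.13 and 4.56 CPM, while GACamk values ran from 3.34 to 14.5 CPM with a median of 10.7. Of the GACamk libraries, 5 of 6 lay above every ctrl library and mouse 35 lay below them all. The hippocampus log2 fold change of 0.88 (SE 0.28) did not pass the test (adjusted p = 0.0556), and it did pass with mouse 35 or mouse 34 left out, with adjusted p down to 0.00836. It also passed in DESeq2 without covariates (adjusted p = 0.0486) and in one fit of all 4 groups (adjusted p = 0.0310), while the other alternatives gave adjusted p from 0.0517 to 0.495. H2-T23 shared 65 of its 451 windows at the 3′ end with other H2 genes, so reads may have been split between them. Summed over the 16 heavy chain genes of the lists with a name in the H2-D, H2-K, H2-Q, H2-T or H2-M series, a sum that depends less on how reads were split among them, CPM was 97.2 to 113 in ctrl and 248 to 451 in GACamk cortex, and 95.7 to 110 in ctrl and 242 to 393 in GACamk hippocampus.

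**Figure D1:**
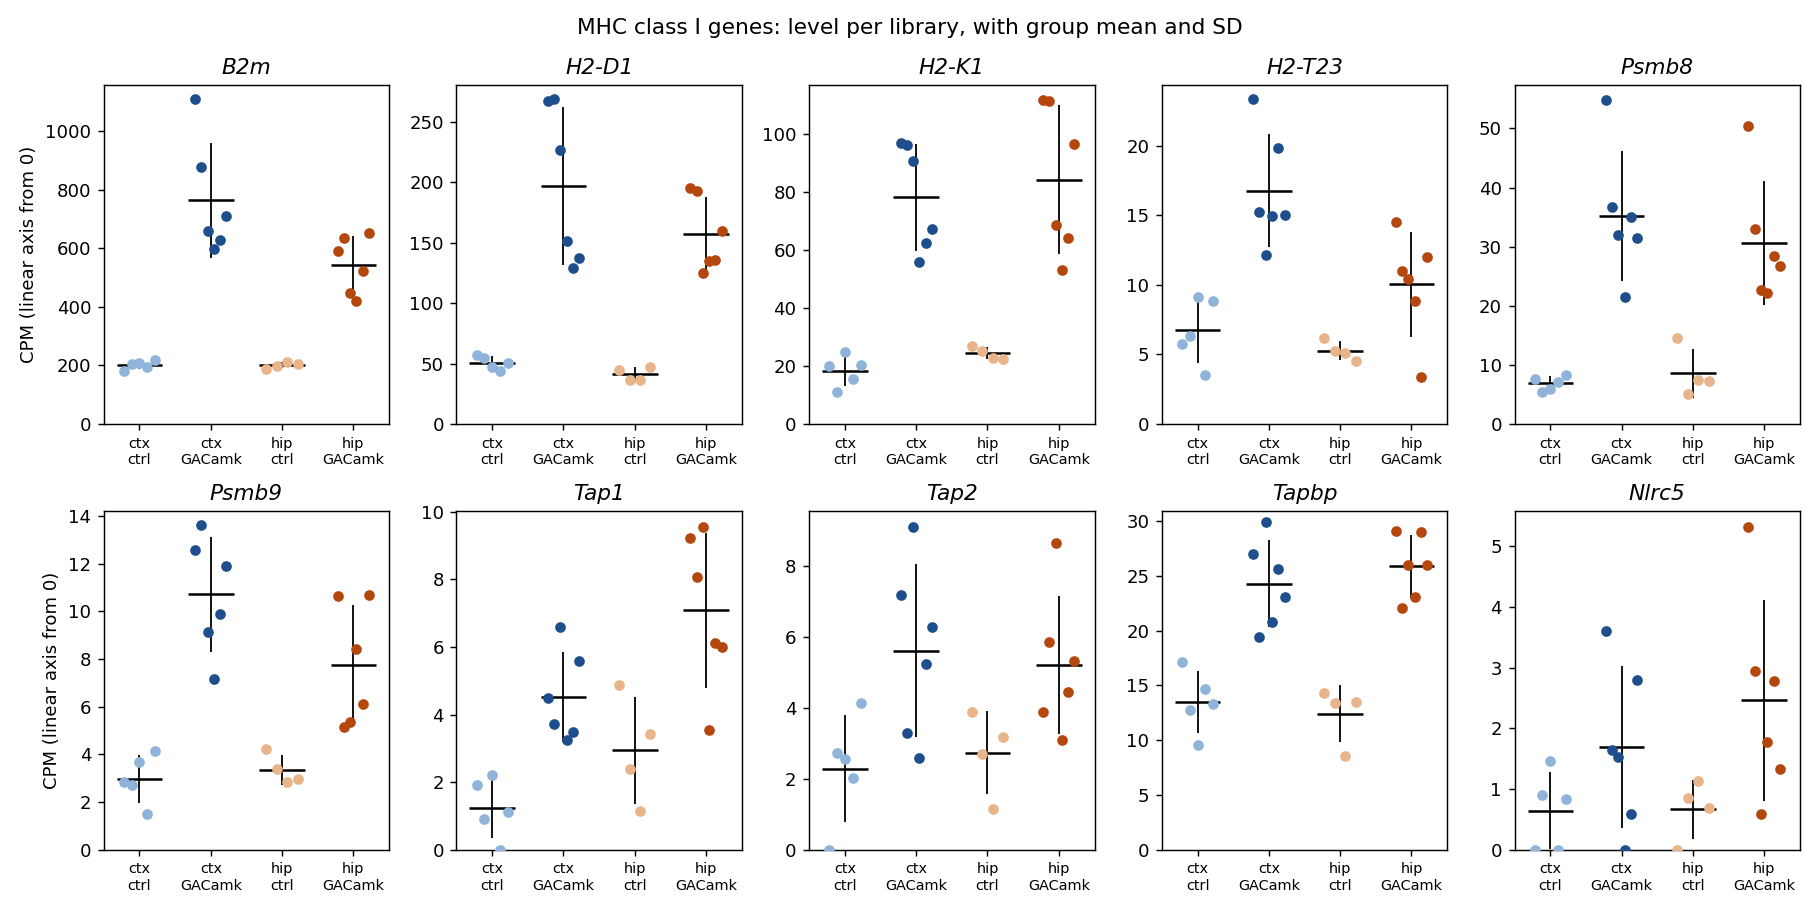
CPM of each of the 10 genes (vertical axis, linear from 0) in each library of cortex (ctx) and hippocampus (hip), ctrl in light and GACamk in dark points; horizontal lines are group means and vertical lines 1 SD. B2m, H2-D1, H2-K1 and Psmb8 show no overlap between genotypes in either tissue, while Nlrc5 stays under 5.4 CPM in every library.

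Psmb8 (ENSMUSG00000024338), the beta-type subunit that replaces Psmb5 in the immunoproteasome, had the highest fitted increase of the 7 genes tested in the cortex. Ctrl cortex values were 7.63, 5.45, 5.86, 7.09 and 8.31 CPM, and GACamk cortex values ran from 21.4 to 54.8 CPM with a median of 33.4. The groups lay far apart, and the gene rose 4.95-fold, a log2 fold change of 2.31 (SE 0.20, adjusted p = 7.02e-08). In the hippocampus ctrl values were 14.6, 5.10, 7.41 and 7.29 CPM and GACamk values 22.2 to 50.3 CPM, median 27.6. The ctrl library of mouse 11, with its high Rorb, was the highest of its group and was still below all GACamk libraries. The log2 fold change was 1.86 (SE 0.28, adjusted p = 6.54e-04).

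Psmb9 (ENSMUSG00000096727), which takes the place of Psmb6, was at 2.86, 2.72, 3.66, 1.52 and 4.16 CPM in ctrl cortex and at 7.15 to 13.6 CPM, median 10.9, in GACamk cortex. The log2 fold change was 1.75 (SE 0.27, adjusted p = 1.11e-04). In the hippocampus ctrl mice had 4.22, 3.40, 2.85 and 2.96 CPM and GACamk mice 5.14 to 10.7 CPM, median 7.28, a log2 fold change of 1.13 (SE 0.28, adjusted p = 0.0156). The genotypes did not overlap in either tissue, although these levels rest on 3 to 15 counts in ctrl cortex. In the hippocampus too, the gene passed the filter mainly through GACamk libraries. The third inducible subunit, Psmb10, was not called in the cortex (log2 fold change 0.20, SE 0.11, adjusted p = 0.265) or in the hippocampus (log2 fold change -0.07, SE 0.10, adjusted p = 0.751). Of the constitutive subunits that the inducible ones displace, Psmb6 rose in the cortex by 0.29 on the log2 scale (SE 0.09, adjusted p = 0.0307) and Psmb5 fell by 0.35 in the hippocampus (SE 0.10, adjusted p = 0.0309), and the other 4 tests of Psmb5, Psmb6 and Psmb7 did not pass. Each of these calls was lost in 5 fits with 1 library left out.

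Tapbp (ENSMUSG00000024308), the loading chaperone tapasin, rose in both tissues. Ctrl cortex held 17.2, 12.7, 9.53, 14.7 and 13.3 CPM and GACamk cortex 19.4 to 29.9 CPM, median 24.4. The groups did not overlap, with a log2 fold change of 0.91 (SE 0.18, adjusted p = 0.00144). Ctrl hippocampus held 14.3, 13.4, 8.55 and 13.4 CPM and GACamk hippocampus 22 to 29.1 CPM, median 26, a log2 fold change of 0.97 (SE 0.16, adjusted p = 9.36e-04).

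Tap1 (ENSMUSG00000037321) and Tap2 (ENSMUSG00000024339), the subunits of the peptide transporter, were near the limit of detection. Tap1 in ctrl cortex was at 1.91, 0.908, 2.20, 0 and 1.11 CPM, from at most 6 counts, and the count of 0 in mouse 37 allows up to 1.52 CPM. GACamk cortex was at 3.25 to 6.58 CPM, median 4.10, with no overlap. Tap1 was under the filter in the cortex, and a fit with no filter gave a log2 fold change of 1.83 (SE 0.44, adjusted p = 0.00247). In the hippocampus it was at 4.87, 2.38, 1.14 and 3.42 CPM in ctrl mice and 3.55 to 9.56 CPM, median 7.11, in GACamk mice. Mouse 34 overlapped the ctrl range and the other 5 GACamk libraries lay above it. The log2 fold change of 1.18 (SE 0.32) passed at an adjusted p of 0.0272, but 7 of the 10 fits with 1 library missing lost the call, with adjusted p up to 0.0956. The libraries whose loss ended the call were ctrl mice 20, 31 and 37 and GACamk mice 16, 23, 30 and 35.

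Tap2 was at 0, 2.72, 2.56, 2.03 and 4.16 CPM in ctrl cortex, where the count of 0 in mouse 11 allows up to 2.86 CPM. It was at 2.60 to 9.12 CPM, median 5.77, in GACamk cortex, where it was under the filter, and the groups overlapped. A fit with no filter gave 1.02 on the log2 scale (SE 0.35, adjusted p = 0.0974). In the hippocampus it was at 3.90, 2.72, 1.14 and 3.19 CPM in ctrl mice and 3.10 to 8.66 CPM, median 4.90, in GACamk mice, and the log2 fold change of 0.81 (SE 0.33) did not pass the test (adjusted p = 0.140). Both groups overlapped there as well.

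Nlrc5 (ENSMUSG00000074151), the transactivator, was the gene with the fewest counts, at most 15 in a library, and was under the filter in both tissues. It was at 0, 0.908, 1.47, 0 and 0.831 CPM in ctrl cortex and 0 to 3.60 CPM, median 1.59, in GACamk cortex. In the hippocampus it was at 0, 0.849, 1.14 and 0.684 CPM in ctrl mice and 0.597 to 5.32 CPM, median 2.28, in GACamk mice. A count of 0 in these libraries allows 0.974 to 2.86 CPM, so the ctrl libraries at 0 cannot be separated from several GACamk libraries. With no filter, edgeR gave a log2 fold change of 1.10 (SE 0.61, adjusted p = 0.635) in the cortex and 1.74 (SE 0.52, adjusted p = 0.0325) in the hippocampus.

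In the hippocampus 9 of the 10 genes could be tested and 7 were called higher, where 4.97% of all genes tested were called higher and 10.9% called in either direction. Tap1, Tap2 and Psmb9 passed the filter there mainly through their GACamk libraries, with at most 1 of 4 ctrl libraries over the filter's level, and of the other 6 genes 5 were called. Without the 3 libraries with high Rorb 6 of the 8 genes tested were called, Tap1 being lost (adjusted p = 0.139), and without the library of mouse 41 the count was 7. By level alone, every GACamk library lay above every ctrl library for 8 of the 10 genes in the cortex and for 6 in the hippocampus. Of the class I genes tested, this held for 7 of 7 in the cortex and 6 of 9 in the hippocampus. Over all genes tested, it held for 3.5% in the cortex and 5.6% in the hippocampus.

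Batch, as the labels give it, was spread over both genotypes, and the effects were also fitted within each batch. In the cortex the 7 fold changes kept their direction in both batches, from 0.80 for H2-T23 to 2.09 for Psmb8 on the log2 scale in batch 1 and from 0.91 for Tapbp to 2.74 for Psmb8 in batch 2. H2-T23 moved most, to 2.20 in batch 2 (adjusted p = 0.00602). The call of Tapbp was lost in batch 2 (adjusted p = 0.131). In the hippocampus, with 2 ctrl libraries in each batch, B2m and H2-D1 passed in both batches, and H2-K1, Psmb8 and Tapbp passed in batch 2 with log2 fold changes of 1.82, 2.27 and 1.06. In batch 1 these had log2 fold changes of 1.64, 1.55 and 0.88 (adjusted p = 0.0571, 0.187 and 0.116). Tap1 and Psmb9 passed in neither batch alone.

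**Figure D2:**
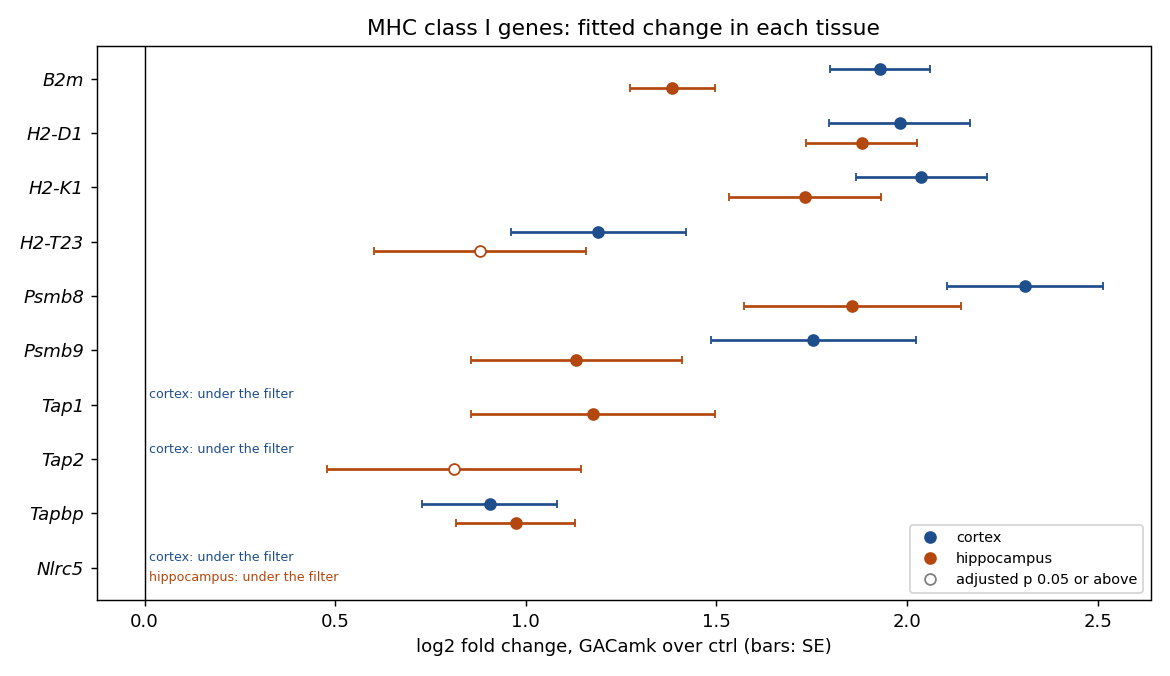
Fitted log2 fold change of GACamk over ctrl (horizontal axis) for each gene, cortex in blue and hippocampus in orange, with SE as bars; open points have an adjusted p of 0.05 or above. Psmb8 is highest in the cortex at 2.31 and H2-D1 in the hippocampus at 1.88, and no tested gene has a value below 0.

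The next comparison asked whether the genotype effect differed between the tissues. The difference, hippocampus minus cortex, ranged from -0.70 for Tap1 to 0.08 for Tapbp over the 9 genes tested, and 0 passed in the edgeR fit over 21 libraries, where 0.414% of all genes tested did. DESeq2 and limma also called 0, and 1 gene had an unadjusted p under 0.05 in edgeR. This was B2m, with a difference of -0.55 (SE 0.18, unadjusted p = 0.00519, adjusted p = 0.238). With the mouse as a block, which uses the 10 mice that gave both tissues to remove differences between animals, the B2m difference was -0.58 (SE 0.12) and passed (adjusted p = 0.0448). It was the 1 gene of the set to do so, and the other adjusted p-values under the block ran from 0.385 upward. For H2-D1 and Tapbp the estimates were -0.11 (SE 0.26) and 0.08 (SE 0.24), and both changed sign in 1 or more fits with a library left out.

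Between the tissues themselves, 0 of the 6 genes tested in ctrl mice differed at the threshold, where 16.5% of all genes tested were called. In edgeR 2 genes, H2-D1 and H2-K1, had an unadjusted p under 0.05, while limma called 1 and DESeq2 0. B2m in ctrl mice was 201 ± 14 CPM in the cortex (SD, n = 5) and 201 ± 10.5 CPM in the hippocampus (SD, n = 4), a log2 difference of -0.06 (SE 0.09). In GACamk mice, where 33.3% of all genes tested were called and 16.3% were called lower, 2 of 9 genes differed. B2m was lower in the hippocampus by 0.64 on the log2 scale (SE 0.13, adjusted p = 0.00145), and H2-T23 by 0.78 (SE 0.24, adjusted p = 0.0196), although both groups overlapped in CPM. Of 15 microglia markers, 5 were also lower in the hippocampus of GACamk mice, with a median log2 difference of -0.33 and mean sums of 1378 CPM against 1749.6 CPM in the cortex, and their part in this difference was not tested. With the mouse as a block H2-D1 was also lower in the hippocampus, with a log2 difference of -0.41 (SE 0.11, adjusted p = 0.0155). The number called moved from 1 to 5 with single libraries left out, 5 being reached without the hippocampus library of mouse 16. The call of H2-T23 was lost without the cortex library of mouse 16 or of mouse 35. Without the 3 libraries with high Rorb, 3 genes were called, Psmb8 being added at a log2 difference of -0.65 (SE 0.18, adjusted p = 0.0166), while the counts for ctrl mice and for the difference between the tissues stayed at 0. Without the hippocampus library of mouse 41 the count in GACamk mice was 2.

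Other genes of the pathway were followed from lists of 62 genes, of which 32 passed the filter in the cortex and 38 in the hippocampus. In the cortex 10 were higher and 1 lower, with a median log2 fold change of 0.22, and in the hippocampus 7 were higher and 1 lower, with a median of 0.15. Of all genes tested, 6.16% were called lower in the cortex and 5.95% in the hippocampus. Many of these calls were close to the threshold. With each library left out in turn, 5 of the 11 cortex calls held throughout (Psme1, Psme2, Irf8, Irf9 and Ifnar2) and the others were lost in 1 to 5 of 11 fits. In the hippocampus 2 of the 8 calls held throughout (Irf8 and Irf9) and the others were lost in 1 to 8 of 10 fits. With the other alternatives counted too, such as DESeq2, thinned counts or 1 batch alone, 1 cortex call (Irf8) and 0 hippocampus calls held wherever tested. Irf8 in the cortex was tested in 11 of these 12 alternatives. The cortex calls of Psme1, Psme2, Irf9 and Ifnar2 were lost in batch 2 alone and in no other alternative, and the hippocampus calls of Irf8 and Irf9 in batch 1 alone and in no other. The median over all genes tested was -0.0049 and 0.0162. Of 7 genes of peptide generation, Psme1 and Psme2, which form the PA28 cap of the proteasome, rose in the cortex by 0.62 on the log2 scale each (SE 0.11 and 0.12, adjusted p = 7.21e-04 and 0.00192). Psme2 also rose in the hippocampus by 0.50 (SE 0.15, adjusted p = 0.0487), a call lost in 14 of 24 alternative fits. Erap1, which trims peptides in the endoplasmic reticulum, rose in the hippocampus by 1.22 (SE 0.31, adjusted p = 0.0185) and was under the filter in the cortex. Its call was lost in 3 of 10 fits with 1 library left out and in each batch alone. Without the 3 libraries with high Rorb, the hippocampus calls of Erap1, Psme2, Ifngr1 and Ifngr2 were lost. The aminopeptidase Lnpep fell by 0.39 in the cortex (SE 0.11, adjusted p = 0.0257).

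Of the general chaperones of the loading complex, none passed the test. Calr, Canx and Pdia3, which help fold many glycoproteins besides class I, gave log2 fold changes between -0.34 and 0.07 in the cortex and between -0.25 and 0.07 in the hippocampus (edgeR adjusted p of 0.129 or above). Sec61b, a subunit of the translocon, rose by 0.38 in the cortex (SE 0.11, adjusted p = 0.0260). Of 17 other heavy chain and class I-like genes, most were under the filter. H2-T22 rose by 0.64 (SE 0.17, adjusted p = 0.0137) and H2-M3, which presents formylated bacterial peptides, by 1.10 (SE 0.30, adjusted p = 0.0162) in the cortex. The neonatal Fc receptor heavy chain Fcgrt rose by 0.48 in the cortex (SE 0.15, adjusted p = 0.0427) and 0.61 in the hippocampus (SE 0.13, adjusted p = 0.00859), and Mr1, which presents vitamin metabolites, by 0.88 in the hippocampus (SE 0.25, adjusted p = 0.0333). The call of Fcgrt in the cortex was lost in both DESeq2 fits, without batch, with no filter, with thinned counts and in batch 2. It was also lost in 5 of 11 fits with 1 library left out. That of Mr1 was lost in both DESeq2 fits, with no filter and in batch 1. It was also lost in 8 of 10 fits with 1 library left out, among them the fit without mouse 41.

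Among 13 regulators of transcription, Irf8 and Irf9 rose in both tissues. Irf8, an interferon regulatory factor that microglia express constitutively, was at 3.82 to 5.54 CPM in ctrl and 12.3 to 21.6 CPM in GACamk cortex, a log2 fold change of 1.68 (SE 0.21, adjusted p = 9.96e-06). The filter needed 5 cortex libraries at 5.06 CPM or more, so Irf8 passed it through its GACamk libraries whatever its ctrl level. In the hippocampus the log2 fold change of Irf8 was 1.49 (SE 0.17, adjusted p = 5.35e-05). Irf9, the DNA-binding part of the complex that binds the ISRE, rose by 1.13 on the log2 scale (SE 0.24, adjusted p = 0.00333) in the cortex and by 1.44 (SE 0.19, adjusted p = 2.12e-04) in the hippocampus. Neither Stat2, a partner of Irf9, nor the NF-kappaB genes Nfkb1, Rela and Relb passed in either tissue. Ciita, the class II counterpart of Nlrc5, was under the filter, at 0 to 1.91 CPM.

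Of the interferon receptors, Ifngr1 rose in both tissues, by 0.57 in the cortex (SE 0.15, adjusted p = 0.0119) and 0.53 in the hippocampus (SE 0.16, adjusted p = 0.0434). Ifnar2 rose by 0.72 in the cortex (SE 0.17, adjusted p = 0.00617), and Ifngr2 fell by 0.35 in the hippocampus (SE 0.10, adjusted p = 0.0301). The hippocampus call of Ifngr1 was lost in 7 of 10 fits with 1 library left out and in 5 of 14 other alternatives. That of Ifngr2 was lost in 6 of 10 and 4 of 14. In the cortex the call of Ifngr1 was lost in 1 of 11 and 3 of 12. Of the interferons, Ifnb1 had at most 1 count in a library. The receptors that read class I on T and natural killer cells were mostly under the filter. Cd8a had at most 3 counts and Cd8b1 at most 4 in any library. The 1 receptor gene tested, Pilra, did not pass in either tissue.

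**Figure D3:**
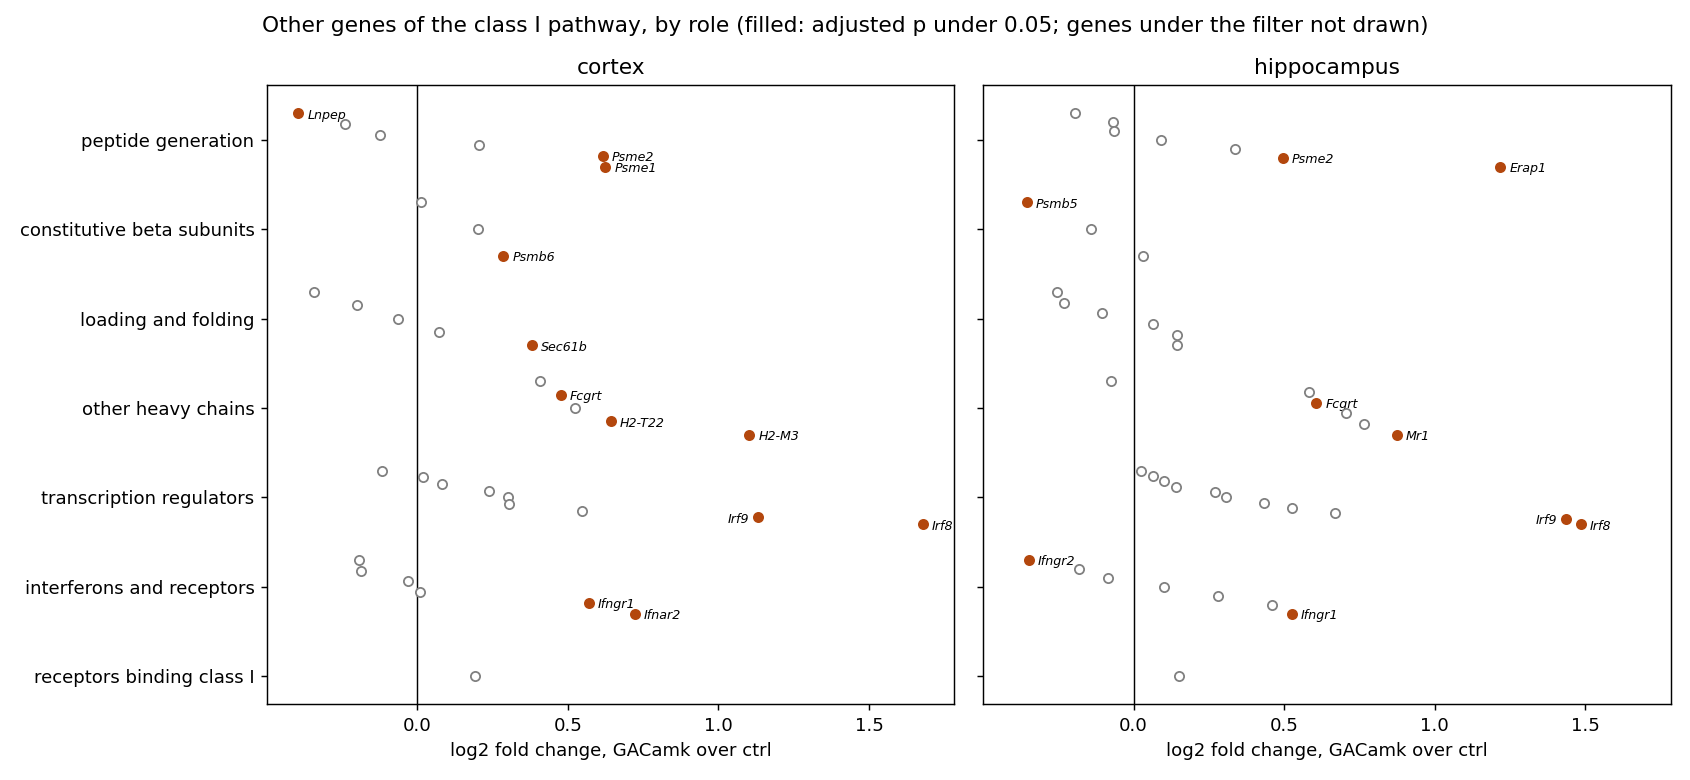
Fitted log2 fold change of GACamk over ctrl (horizontal axis) for the other pathway genes that passed the filter, grouped by role (rows), in cortex (left) and hippocampus (right); filled points have an adjusted p under 0.05. Irf8 and Irf9 lie furthest right among the regulators in both tissues, and in the loading and folding group Sec61b in the cortex is the 1 filled point.

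Markers of the cells that could carry class I were measured beside these results. Of 15 microglia markers, 13 were higher in GACamk cortex and 10 in GACamk hippocampus. Their summed CPM ranged from 553 to 617 in ctrl and from 1396 to 2173 in GACamk cortex, and from 490 to 603 in ctrl and from 975 to 1515 in GACamk hippocampus, with no marker at 0. Trem2 and C1qa had log2 fold changes of 2.31 and 1.99 in the cortex, while the homeostatic markers P2ry12 and Tmem119 were at 0.07 and -0.14 (adjusted p = 0.801 and 0.754). Set against the microglia sum of the same library, the genotypes overlapped for every gene in both tissues except H2-D1 in the hippocampus. Over all genes tested, 0.0996% were higher in every GACamk library by this ratio in the cortex and 0.202% in the hippocampus. On the log2 scale the change in this ratio lay between -0.70 for Tapbp and 0.76 for Psmb8 in the cortex over the 7 genes with a count in every library, and between -0.50 for H2-T23 and 0.61 for H2-D1 in the hippocampus, leaving out Nlrc5, which had a library at 0. The part of microglia number or state in the class I result was not tested.

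Astrocyte and excitatory neuron markers also moved with genotype. Of 7 astrocyte markers, 4 were higher in GACamk cortex and 5 in GACamk hippocampus. Their summed CPM was 1549.5 to 2319.7 in ctrl and 2283 to 3718 in GACamk cortex, and 2069 to 2412 in ctrl and 3466 to 4882 in GACamk hippocampus, with no marker at 0. Gfap, which encodes a filament protein of astrocytes, had log2 fold changes of 2.27 (SE 0.16, adjusted p = 3.86e-09) and 2.32 (SE 0.14, adjusted p = 4.10e-07). Of 5 excitatory neuron markers, 4 were lower in each tissue, with sums of 875 to 1328 CPM in ctrl and 656 to 843 CPM in GACamk cortex, and 1438 to 1756 CPM in ctrl and 693 to 934 CPM in GACamk hippocampus, again with no marker at 0. Among 5 blood markers, 3 globin genes were higher in GACamk cortex, where the sum was 648 to 939 CPM in ctrl and 709.98 to 2214 CPM in GACamk mice. In the hippocampus that sum was 554 to 873 CPM in ctrl and 693 to 5554 CPM in GACamk mice. Pericyte markers, 5 in number, summed to 109.9 to 128 CPM in ctrl and 138 to 195 CPM in GACamk cortex and to 119 to 157 CPM and 149.6 to 204 CPM in the hippocampus, and 1 of them, Vtn, was higher in both tissues. Of 6 inhibitory neuron markers, 1 was higher in the cortex (Vip) and 2 in the hippocampus (Vip and Gad2), with sums of 985 to 1058 CPM in ctrl and 1095 to 1473 CPM in GACamk cortex and of 794 to 911 CPM and 726 to 1155 CPM in the hippocampus. No marker of these lists was at 0. The part of these cell types in the class I result was not tested.

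Endothelial markers were measured in the same way. In edgeR 0 of the 9 tested in the cortex and 0 of the 10 tested in the hippocampus passed, while 3 in each tissue had an unadjusted p under 0.05. DESeq2 called 0 in either tissue, and limma called 0 in the cortex and 1 in the hippocampus. Their sums were 158 to 263 CPM in ctrl and 175 to 262 CPM in GACamk cortex, and 164 to 184 CPM in ctrl and 180 to 253 CPM in GACamk hippocampus. Against this sum, 7 of the 10 genes did not overlap between genotypes in the cortex, with the ctrl library without a Tap1 count taken as 0, and 5 did not in the hippocampus. Of the genes tested these were 6 of 7 and 5 of 9, and over all genes tested 1.13% and 1.68% were higher in every GACamk library by this ratio. The log2 change in the ratio was 1.73 for B2m and 2.16 for Psmb8 in the cortex and 1.16 and 1.62 in the hippocampus. Border macrophage markers, 6 in number, were higher in GACamk mice by their sums, 19.0 to 28.6 CPM against 6.96 to 17.3 CPM in the cortex and 16.4 to 111 CPM against 8.55 to 12 CPM in the hippocampus, the highest being mouse 41. Markers of T cells, 11 in number, summed to 25.8 to 51.5 CPM in ctrl and 27.4 to 38 CPM in GACamk cortex, and to 11.9 to 12.7 CPM and 14.6 to 30.7 CPM in the hippocampus, where Cd2 was at 0 in ctrl mice. In the cortex this sum was mostly Trbc2, at 28.7 CPM on average in ctrl and 17.7 CPM in GACamk mice, the 1 marker tested there, which fell by 0.69 on the log2 scale (SE 0.20, adjusted p = 0.0258). Markers of natural killer and other cytotoxic cells summed to at most 4.13 CPM, with Gzmb, Ncr1, Gzma or Prf1 at 0 in 1 or more groups. The part of border macrophages and T cells in the result was not tested.

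**Figure D4:**
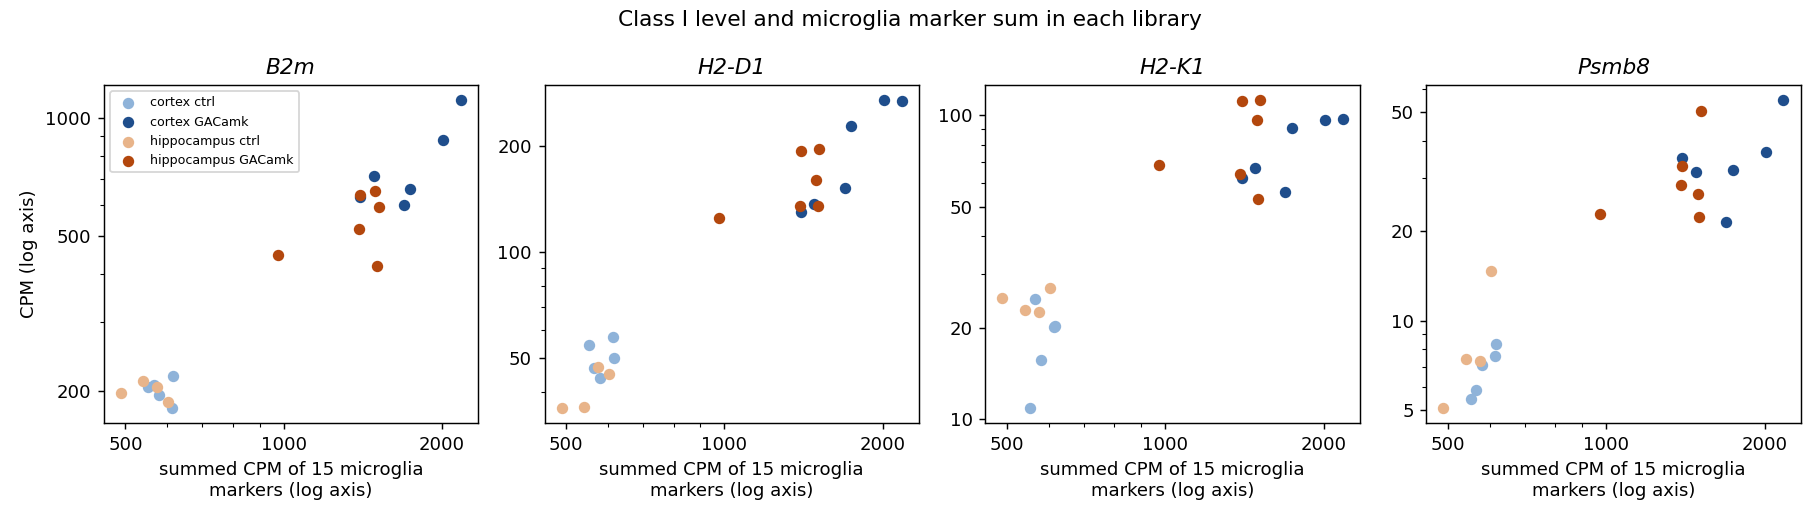
CPM of B2m, H2-D1, H2-K1 and Psmb8 (vertical log axis) against the summed CPM of 15 microglia markers (horizontal log axis) in each library, coloured by tissue and genotype. Ctrl libraries gather at sums of 490 to 617 CPM and GACamk libraries at 975 to 2173 CPM, and both measures separate the genotypes.

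GACamk mice differed among themselves. For each library the deviation of the 10 genes from their group mean was averaged on the log2 CPM scale. Mouse 16 was highest in both tissues, with a mean deviation of 0.44 in the cortex, where 10 of 10 genes lay above their group mean, and 0.41 in the hippocampus, where 9 did. Mouse 34 was lowest in both, at -0.51 in the cortex with 0 genes above the mean and -0.31 in the hippocampus with 1. Mice 23, 30, 35 and 41 lay between -0.19 and 0.15. The microglia sum was highest in mouse 16 in both tissues as well (2173 and 1515 CPM), but in mouse 34 it was 1692 and 1503 CPM, in the middle and near the top of its groups. Across the 12 GACamk libraries the 45 pairs of genes had a median correlation of 0.38 (range -0.16 to 0.85), 42 of them positive, and H2-D1 with H2-K1 was the closest pair. These libraries share mice and include low counts, so the values are a description.

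**Figure D5:**
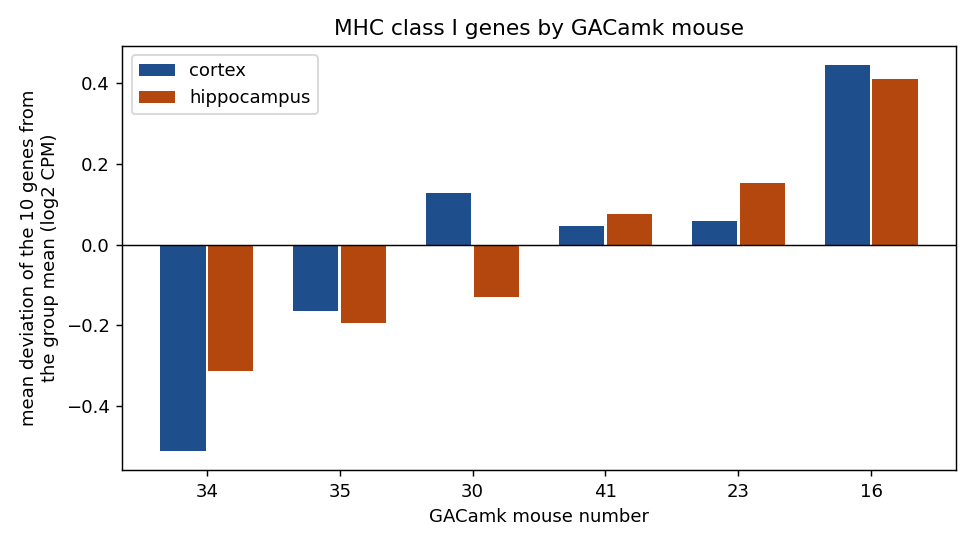
Mean deviation of the 10 genes from their group mean (vertical axis, log2 CPM) for each GACamk mouse, cortex in blue and hippocampus in orange. Mouse 34 is lowest and mouse 16 highest in both tissues, at -0.51 and 0.44 in the cortex.

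Among 11782 other genes with an average log2 CPM of at least 3, the 5 whose pattern over the 21 libraries was most like the mean pattern of the set were Ctss, Lgals3bp, Cnn3, C1qc and Csf1. Their Pearson correlations with that mean pattern were 0.96, 0.95, 0.95, 0.95 and 0.95, across libraries that share genotype groups and mice. Ctss encodes cathepsin S, a lysosomal protease, C1qc a chain of complement C1q that is among the microglia markers, and Csf1 the ligand of the receptor on which microglia depend. Ctss had log2 fold changes of 1.86 in the cortex and 1.74 in the hippocampus (adjusted p = 1.06e-08 and 1.04e-05), close to those of H2-K1. Cnn3, an actin-binding calponin, had smaller ones, 0.91 and 0.87 (adjusted p = 3.78e-06 and 3.79e-05).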

How the data were processed

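RNA of the cortex and hippocampus was sequenced with prime-seq. The authors made counts per gene with zUMIs on GRCm39 with an added GFP sequence. They deposited the raw counts of each gene in each library, without normalization. The submitters' processing notes name FastQC 0.11.8, cutadapt 1.12, STAR and DESeq2 1.44. Whether molecular identifiers or reads were counted, and whether strand was used, is not given in the sources used here. Tap1 with Psmb9, B2m with Patl2, Psmb8 and Tap2 with Gm20496, and H2-T23 with A930015D03Rik overlap on opposite strands, and Tapbp overlaps Zbtb22 on the same strand, so their counts may include each other's reads.

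Gene symbols were matched on the Ensembl number for 43308 of 64361 rows, from a GENCODE table of GRCm38. The GFP row stayed out of totals and tests. CPM is a count scaled to the total of its library. Groups, mouse numbers and batch came from the labels, and no library was left out of the main results. Genes were filtered with filterByExpr (minimum count 10) and tested in edgeR 4.0.16 (R 4.3.3) with TMM normalization, the two-sided quasi-likelihood F-test, batch as covariate and Benjamini-Hochberg adjustment over all genes tested, with a threshold of 0.05. The study used DESeq2, with a design formula not given in the sources used here, and DESeq2 without covariates was an alternative. SE is the log2 fold change over the square root of F. Deviations and patterns across libraries used log2 CPM with a prior count of 2. In the fits within a tissue, p-values measure the spread between mice. The main fits across tissues had no term for the mouse and took both libraries of a mouse as separate units. Depth limits the precision of the low genes.

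Alternatives were other normalizations, DESeq2 1.42.0, limma 3.58.1 with quality weights, no batch term, no filter or a minimum count of 30, thinned counts, each batch alone, one fit of all 4 groups, the mouse as a block and each library left out in turn. Leaving out the 3 libraries with high Rorb, and the 1 with high neutrophil genes, was added after seeing the data. The mouse pairs the tissues because both came from 1 animal, although the deviations of the 2 tissues of a mouse correlated weakly, with r from -0.23 to 0.29 over 10 mice. Within groups, 0 of 46 pairs of libraries were identical, and chi-square per degree of freedom was 2.10 to 15.1. In data simulated on the cortex comparison, 89% of genes with a log2 change of 1 were recovered and 96% with a log2 change of 2. On the hippocampus comparison these shares were 77% and 95%. Between tissues they were 69% and 94% in ctrl mice and 82% and 94% in GACamk mice. For the difference of the genotype effect between tissues they were 50% and 96%, so a count of 0 there does not show equal effects. The genes, the pathway and marker lists and the naming rule (all 10 genes, called genes of the pathway lists, and the 5 genes most alike) were chosen with earlier results of these data known, and 1 gene of the lists is not reported here. Tmem119 and P2ry12 were named after their values were seen. Intervals and limits for counts of 0 (3 counts of the total) cover counting error only.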

Additional observations from a re-analysis of the deposited data

Results flagged for a closer look

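Of 40 groups of 4 to 6 libraries, 1 for each gene and group, 2 held a library that stood apart from the others of its group by Dixon's rule, where chance gives about 1 in 20. H2-T23 in the hippocampus of GACamk mouse 35 was at 3.34 CPM, from 6 counts, against 8.87 CPM in the next library. Tapbp in the hippocampus of ctrl mouse 31 was at 8.55 CPM, from 15 counts, against 13.4 CPM in the next library. Neither value was left out of the report, and the cause of either was not tested.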

How the results depend on the processing

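All 7 cortex calls kept their direction and side of the threshold with each library left out (7 to 7 of the 10 genes called) and under the alternatives that could test them, except Tapbp in batch 2. B2m and H2-D1 kept theirs in both tissues under every alternative run. In the hippocampus the number of the 10 genes called ran from 5 to 8 with a library left out, the lowest without ctrl mouse 37, where Tap1 and Psmb9 (adjusted p = 0.0712) were lost, and it was 2 in batch 1 alone. No fold change of a called gene changed sign. For the difference between the tissues it was 0 to 0 with a library left out, 1 with no filter and 1 with the mouse as a replicate block (B2m in both). For hippocampus against cortex in ctrl mice it ran from 0 to 1, with 1 under limma (H2-D1) and 1 with no filter (Tap1), and in GACamk mice from 1 to 5, with 1 at a minimum count of 30 and 1 with thinned counts. The block changed no other call than B2m here and H2-D1 in GACamk mice.

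Over all genes, leaving out 1 library gave 1040 to 1526 calls in the cortex (1634 with all), 1038 to 1830 in the hippocampus (1625), 22 to 66 for the difference between tissues (61), 1580 to 3170 between tissues in ctrl mice (2385) and 3660 to 4262 in GACamk mice (4359). The cortex had 1070 calls with thinned counts, 879 in batch 1 and 230 in batch 2. The hippocampus had 115 in batch 1, 681 in batch 2 and 1005 without the 3 libraries with high Rorb. The difference between tissues had 127 calls in DESeq2 with batch, 98 in DESeq2 without covariates, 33 in edgeR without batch, 159 with no filter, 30 with thinned counts and 20 without those 3 libraries. Ctrl tissues had 1375 with thinned counts. Fits with fewer libraries or thinned counts hold less information, and the cause of the other changes was not tested. Depth limits the genes with low counts, which had at most 32 counts in a library for Tap1, Tap2 and Nlrc5 and at most 34 for Psmb9.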
